A study of Mus musculus with 2 samples.

Results

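The 9 lymphatic identity genes Prox1, Mmrn1, Reln, Pdpn, Nts, Ccl21a, Thy1, Fxyd6 and Sned1 are genes by which the lining of lymph vessels is told from that of blood vessels. They were taken by symbol from the 32286 features of the count tables, where they stand under 10 identifiers because Ccl21a has 2. Their unique molecular identifiers (UMIs, each 1 counted transcript) were summed over lymphatic and blood endothelial cells to ask whether blood endothelium of the aKO library held any of them above the aWT level. Fxyd6 did so: it stood at 25.8 CPM (UMIs of the gene scaled to the total UMIs of the class) in aKO blood endothelium, against 3.26 CPM in aWT blood endothelium. The 2 libraries filled largely different cell clusters, and in the venous cluster that they shared most the gap was smaller, at 71.3 CPM in aKO and 40.6 CPM in aWT. In another shared cluster it was wider. Venous cells there stood at 171 CPM in aKO and 39.2 CPM in aWT, and arterial cells at 75.5 CPM in aKO and 14.1 CPM in aWT. Sned1 passed 2-fold under 1 of 2 class definitions. The other 7 genes stayed below 1% of their own lymphatic level in the blood endothelium of both libraries. Blood cells with 3 or more of the 9 genes were rarer than 0.2% at an equal depth of 2000 UMIs.

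The aKO library and the aWT library, 1 each, were made from lungs of C57BL/6J mice aged 10 to 12 weeks. In both, a Cre recombinase under the VE-cadherin promoter, active in endothelial cells, marked cells with tdTomato, and the marked cells were sorted and read from the 3′ ends of their transcripts. The series title names a model of hereditary hemorrhagic telangiectasia type 2, a disease of the gene for the receptor ALK1 (Acvrl1 in mice). The allele that the letter a stands for, any inducing agent, the number of mice in a library and their sex are not stated by the labels.

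Lymphatic endothelium arises largely from embryonic veins, where the homeobox factor Prox1, acting with Sox18 and Nr2f2, switches cells to the lymphatic programme and is needed to keep it in the adult. The growth factor Vegfc then drives these cells through the receptor Flt4. In the lung, lymphatic vessels run along airways and larger vessels, drain fluid, and draw dendritic and T cells with the chemokine Ccl21.

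The aKO library held 11045 barcodes and 75950364 UMIs, and the aWT library 15996 barcodes and 72270260 UMIs. After filtering, 10403 aKO cells (median 5741 UMIs) and 14961 aWT cells (median 3920 UMIs) remained, and 40 of the kept barcodes occurred in both libraries. With 1 library per genotype there was no replicate error and no test, so 95% intervals (exact Poisson for levels, Clopper-Pearson for shares) cover counting error only. The female transcript Xist stood at 730 CPM in aKO and 4.15 CPM in aWT, so sex and genotype cannot be told apart. Acvrl1 stood at 585 CPM (579 to 591) in aKO blood endothelium and 1073 CPM (1065 to 1082) in aWT blood endothelium; the labels do not name the deleted part, and a 3′ tag outside it would check nothing.

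Classes were set by marker UMIs that include none of the 9 genes. Cells needed at least 3 UMIs of pan-endothelial genes and 5 UMIs of class markers; a lymphatic share of marker UMIs of at most 0.1 made a blood cell and of at least 0.5 a lymphatic cell. With all 13 lymphatic markers, 6935 aKO cells and 4020 aWT cells fell between the limits. The hyaluronan receptor gene Lyve1, 1 of the 13, was not lymphatic alone: it stood at 2339 CPM in aKO and 802 CPM in aWT blood endothelium, and at 1340 CPM in aKO and 856 CPM in aWT lymphatic cells. Rassf9 was also present in blood cells, at 111 CPM in aKO and 122 CPM in aWT. A second set of classes, chosen after the data had been seen, left both genes out and used 11 lymphatic markers. It gave 1491 aKO and 419 aWT lymphatic cells, 8163 aKO and 12990 aWT blood cells, and 341 aKO and 214 aWT cells between. These classes are ranges of a score: 515 of 9995 aKO and 130 of 13623 aWT cells had a share of 0.4 to 0.6, and 175 aKO and 183 aWT cells one of 0.08 to 0.12. Values below are from the 11-marker classes unless the 13 markers are named.

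**Figure D1:**
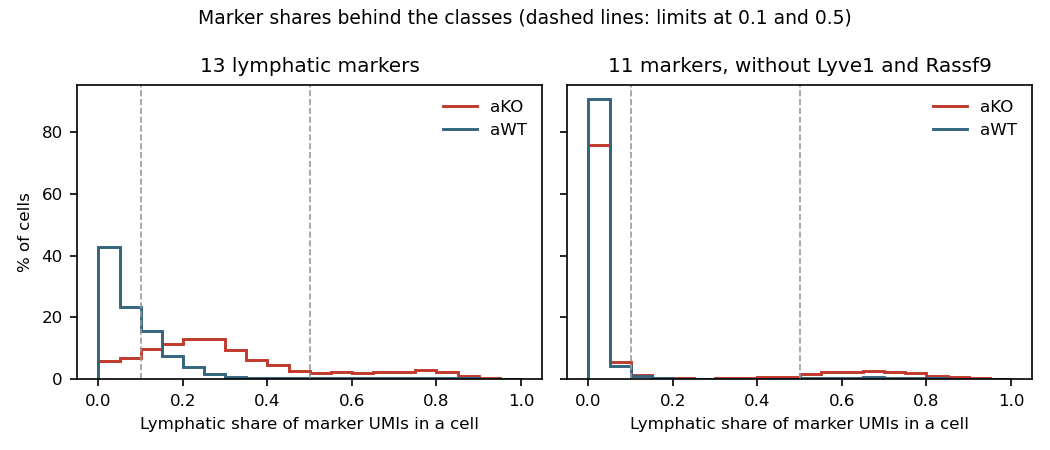
Share of a cell's marker UMIs that are lymphatic (x axis) against % of cells (y axis) in aKO and aWT, with 13 markers (left) and without Lyve1 and Rassf9 (right); dashed lines are the class limits at 0.1 and 0.5. With 13 markers most aKO cells lie between the limits (6935), and without the pair only 341 do.

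Lymphatic cells made up 15.4% of aKO blood and lymphatic cells (14.7 to 16.2%), against 3.12% in aWT (2.84 to 3.43%). They held 16.8% of all UMIs of the kept aKO cells and 3.29% of those of aWT. With 13 markers the shares were 56.6% in aKO and 4.68% in aWT, over the few cells that were not between the limits. The lymphatic share of the aKO library was higher under both marker sets, while the share of lymphatic cells in the lung itself was not measured, since the cells were sorted.

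Promoters are shown for the genes on which the comparison turns: Fxyd6 and Sned1, which differed between the blood endothelium of the libraries, and Prox1 and Mmrn1, which stayed below 1% of their lymphatic level there. Each runs 5′ to 3′ over 300 bases, from 250 before to 50 after the RefSeq start, on GRCm38.p6, the build that mm10 names. Windows were found for 8 of the 9 genes. Capitals mark AACAAT, a SOX motif, AGGTCA, bound by nuclear receptors such as Nr2f2, and GGCGCC, bound by SMAD1 and SMAD5, the factors downstream of ALK1, each searched on both strands with no overlaps found. Fxyd6 lies at chr9:45370185-45396159 (+, ENSMUSG00000066705) with its window at chr9:45369935-45370234. Sned1 lies at chr1:93235841-93301065 (+, ENSMUSG00000047793) with its window at chr1:93235647-93235946. Prox1 lies at chr1:190118035-190170714 (-, ENSMUSG00000010175) with its window at chr1:190170778-190171077, outside the annotated gene. The last 30 bases of this window were found in no annotated Prox1 transcript. Mmrn1 lies at chr6:60924976-60989378 (+, ENSMUSG00000054641) with its window at chr6:60944067-60944366, inside the annotated gene.
Fxyd6: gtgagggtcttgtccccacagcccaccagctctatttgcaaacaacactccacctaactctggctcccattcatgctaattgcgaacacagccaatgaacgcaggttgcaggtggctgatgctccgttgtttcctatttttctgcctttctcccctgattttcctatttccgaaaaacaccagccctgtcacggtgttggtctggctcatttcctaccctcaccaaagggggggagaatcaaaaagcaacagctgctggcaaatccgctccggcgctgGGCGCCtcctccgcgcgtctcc
Sned1: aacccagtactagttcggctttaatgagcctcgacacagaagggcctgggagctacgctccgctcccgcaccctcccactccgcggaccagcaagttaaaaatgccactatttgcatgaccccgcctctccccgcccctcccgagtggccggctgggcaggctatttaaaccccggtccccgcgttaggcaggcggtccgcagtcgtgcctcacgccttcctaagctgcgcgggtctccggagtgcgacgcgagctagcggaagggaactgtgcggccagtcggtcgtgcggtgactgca
Prox1: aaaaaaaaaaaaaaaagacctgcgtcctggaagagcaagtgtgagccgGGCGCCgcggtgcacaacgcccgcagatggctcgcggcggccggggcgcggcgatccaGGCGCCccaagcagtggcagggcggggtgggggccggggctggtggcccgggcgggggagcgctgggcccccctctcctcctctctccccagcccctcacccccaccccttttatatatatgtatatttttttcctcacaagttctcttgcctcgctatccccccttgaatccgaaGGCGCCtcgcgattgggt
Mmrn1: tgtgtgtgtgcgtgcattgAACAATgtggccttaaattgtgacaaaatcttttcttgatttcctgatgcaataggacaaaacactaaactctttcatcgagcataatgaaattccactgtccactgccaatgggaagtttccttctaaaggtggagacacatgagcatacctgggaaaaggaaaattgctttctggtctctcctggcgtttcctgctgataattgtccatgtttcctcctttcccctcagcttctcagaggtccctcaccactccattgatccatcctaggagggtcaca

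The Fxyd6 window holds 1 GGCGCC, at position 28 after the start, the Prox1 window holds 3, and the Sned1 window holds none of the 3 motifs. The Mmrn1 window holds 1 AACAAT. Over 32851 mouse promoter windows of this length, GGCGCC occurs in 11.9%, AACAAT in 10.7% and AGGTCA in 16.3%, so single matches are common. GC content was 54.3% in the Fxyd6 window and 44.3% in the Mmrn1 window, against 64.3% in both the Prox1 and the Sned1 window and a median of 52.7% over all windows. Of the other genes, Reln (chr5:21884454-22344702, -) has 1 GGCGCC, Pdpn (chr4:143267431-143299564, -) 1 AGGTCA, a second Prox1 start 1 GGCGCC, and Nts (chr10:102481756-102490486, -) and Ccl21a (chr4:42772860-42773993, -) have none. Thy1 lies at chr9:44043384-44048579 (+), and all 9 genes are annotated as protein-coding.

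In lymphatic cells, 8 of the 9 genes differed by less than 2-fold between the libraries. A gene was counted as higher or lower when it passed 2-fold on CPM + 1 and had at least 5 CPM in 1 library; of 11079 features that reached this level, 2.83% were higher and 3.43% lower in aKO lymphatic cells. Only Nts passed, and the median log2 ratio of the 9 genes was 0.04, as was that of all features. With the 13-marker classes none of the 9 passed (3.67% of features higher, 2.86% lower).

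Prox1, the factor that sets lymphatic fate, stood at 800 CPM (784 to 816) in aKO lymphatic cells and 938 CPM (898 to 980) in aWT lymphatic cells. It was detected in 91.9% of aKO and 89.0% of aWT lymphatic cells, and after thinning each cell to 2000 UMIs in 73.1% of aKO and 81.1% of aWT cells. At equal depth its share was thus lower in the aKO library, with counting intervals (70.7 to 75.4% in aKO, 76.6 to 85.0% in aWT) that did not overlap.

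The secreted glycoproteins came next. Mmrn1, which encodes multimerin 1, stood at 3026 CPM in aKO and 3002 CPM in aWT lymphatic cells, and Reln, which encodes reelin, at 2035 CPM in aKO and 2308 CPM in aWT. Sned1, which encodes a protein of the extracellular matrix, stood at 439 CPM in aKO and 584 CPM in aWT, a ratio of 0.752. Mmrn1 thus stood at nearly the same level in both, and Sned1 and Reln somewhat lower in aKO.

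The signalling peptides differed from each other. Ccl21a, the chemokine that binds Ccr7 on dendritic and T cells, stood at 10660 CPM in aKO and 10094 CPM in aWT lymphatic cells, with a median of 64 UMIs per aKO cell and 36 per aWT cell at unequal depth. Nts, which encodes the peptide neurotensin, stood at 306 CPM (296 to 316) in aKO and 136 CPM (121 to 152) in aWT lymphatic cells, a log2 ratio of 1.17. Most lymphatic cells of either library held no Nts UMI: it was seen in 30.0% of aKO and 13.8% of aWT cells, and after thinning in 19.0% of aKO (17.0 to 21.2%) and 10.2% of aWT cells (7.22 to 13.8%). The Nts call was lost with the 13-marker classes, where it stood at 272 CPM in aKO and 145 CPM in aWT, a log2 ratio of 0.90. In the cells between the class limits the order was the opposite, at 82.2 CPM in aKO and 264 CPM in aWT, a log2 ratio of -1.67. Those cells held 3.78% of all Nts UMIs in aKO and 33.0% in aWT, so the higher level in aKO lymphatic cells depends on where the class limit lies.

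The 3 genes of membrane proteins were close to level. Pdpn, whose product podoplanin binds a platelet receptor and also marks alveolar type 1 cells, stood at 303 CPM in aKO and 294 CPM in aWT lymphatic cells. Thy1, a lipid-anchored surface protein shared with T cells and fibroblasts, stood at 310 CPM in aKO and 302 CPM in aWT. Of 6 T cell markers, 4 were at 0 in the lymphatic cells of each library (Cd3e, Cd3d and Cd3g in both), and the list summed to 5.24 CPM in aKO and 6.89 CPM in aWT, nearly all of it Cd2. Fxyd6, a small membrane protein of the family that tunes the sodium pump, stood at 578 CPM (564 to 592) in aKO and 561 CPM (530 to 593) in aWT lymphatic cells, so the gene that parted the blood cells did not part the lymphatic ones.

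Lymphatic cells were not uniform in these genes, and the pattern was alike in both libraries. After thinning, Nts was found in 25.9% of aKO cells with the class marker Fgl2 and 8.87% without it, and in 17.5% of aWT cells with it and 5.21% without it. Fxyd6 followed Fgl2 as well, at 69.2% with and 51.1% without it in aKO, and at 72.0% with and 52.6% without it in aWT. Pdpn did likewise (45.5% with and 29.4% without Fgl2 in aKO; 49.0% with and 30.8% without it in aWT). Nts was rarer in cells with the marker Ptx3, at 7.06% with and 23.1% without it in aKO, and 3.31% with and 13.7% without it in aWT. Cells with Fgl2 were 838 of 1402 thinned lymphatic cells in aKO and 143 of 354 in aWT, so the mix within the class differed; its part in the Nts ratio was not tested. The class markers Stab2 and Mrc1, which the class rule used, also stood apart: Stab2 at 79.2 CPM in aKO and 822 CPM in aWT and Mrc1 at 497 CPM in aKO and 930 CPM in aWT.

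**Figure D2:**
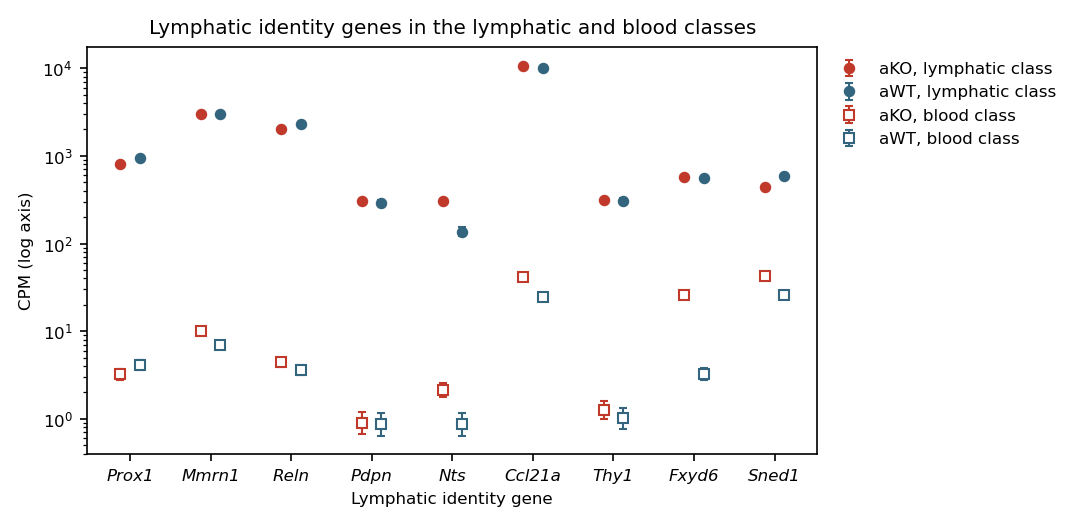
Level of each gene (CPM, log axis) in lymphatic cells (filled) and blood cells (open) of aKO and aWT; bars are 95% Poisson intervals, often smaller than the symbols. The lymphatic symbols pair closely except for Nts (306 against 136 CPM), and the blood symbols lie far below them, with Fxyd6 parted most (25.8 against 3.26 CPM).

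In the blood endothelial class, with 13 markers, 2 of the 9 genes were higher past 2-fold in aKO and none lower; 5 reached 5 CPM, and 8.25% of 11064 features were higher and 3.43% lower. These were Fxyd6, at 39.8 CPM in aKO and 2.85 CPM in aWT, and Sned1, at 47.4 CPM in aKO and 21.1 CPM in aWT. With 11 markers, which kept 8163 aKO blood cells in place of 1358, only Fxyd6 passed, 4 genes reached 5 CPM, and 5.45% of 10941 features were higher and 3.46% lower. The median log2 ratio of all these features was 0.09. With so few genes at this level, the count says little about the list, and what follows is about the genes singly.

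Fxyd6 had 1422 UMIs in aKO blood cells, 25.8 CPM (24.5 to 27.2), and 183 UMIs in aWT blood cells, 3.26 CPM (2.80 to 3.76). The ratio of the CPM was 7.93 (6.80 to 9.30), and the log2 ratio on CPM + 1 was 2.66. The aKO UMIs were concentrated: 464 aKO blood cells had any, 180 of them had 3 or more, and 1 had 19, while 142 aWT cells had any, 8 had 3 or more, and the most was 6. After thinning, Fxyd6 was seen in 173 of 7188 aKO blood cells (2.41%, 2.06 to 2.79%) and 49 of 11320 aWT blood cells (0.433%, 0.320 to 0.572%). In epithelial cells of the same suspensions it was seen in 0 of 14 aKO cells (upper limit 23.2%) and 1 of 83 aWT cells (1.20%, 0.0305 to 6.53%). So few epithelial cells set no background level for Fxyd6 in either library. Within aWT blood the share was uneven, at 1.30% of venous cells (0.806 to 1.98%) and 0.196% of gCap cells (0.0894 to 0.371%).

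Fxyd6 in aKO blood endothelium stood highest in cells classed as venous or arterial. In venous cells, which were split from the blood class by markers such as Vwf, Slc6a2 and Selp, it stood at 64.7 CPM in aKO and 9.27 CPM in aWT. In arterial cells it stood at 22.2 CPM in aKO and 3.03 CPM in aWT. In general capillary cells (gCap), the capillary cells that can renew the capillary bed, it stood at 2.76 CPM in aKO and 1.55 CPM in aWT, and in aerocytes (aCap), the capillary cells of gas exchange, at 2.84 CPM in aKO and 1.23 CPM in aWT, both below the 5 CPM limit. Log2 ratios were 2.68 in veins and 2.53 in arteries. With the 4 subclasses weighted equally the log2 ratio was 2.34, with thinned cells it was 2.30, and among blood cells without any UMI of the 11 lymphatic markers it was 1.87.

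The subclasses of the libraries fell mostly into different clusters. Both libraries were clustered together with no correction for library, so a separate cluster need not be a separate kind of cell. When all cells were clustered without the 9 genes, 97.6% of aKO and 99.9% of aWT gCap cells lay in clusters with under 50 gCap cells of the other library. The same held for 98.8% of aKO and 98.7% of aWT aerocytes, 81.1% of aKO and 94.3% of aWT arterial cells, and 27.6% of aKO and 82.2% of aWT venous cells. Most comparisons within a subclass thus set different clusters against each other.

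Fxyd6 was read again in the clusters that held at least 50 cells of a subclass from each library, a choice made after the data had been seen. Cluster 10 held 60.8% of aKO and 11.3% of aWT venous cells, and Fxyd6 stood there at 71.3 CPM (66.5 to 76.3) in aKO and 40.6 CPM (31.3 to 51.7) in aWT. In venous cells of cluster 13 it stood at 171 CPM (146 to 199) in aKO and 39.2 CPM (22.0 to 64.7) in aWT, and in those of cluster 14 at 121 CPM in aKO (50 UMIs) and 28.3 CPM in aWT (4 UMIs). Fxyd6 was thus present in aWT veins of these clusters and higher in aKO in each, by less than 2-fold in cluster 10. Cluster 6, with 66.4% of aWT venous cells, had 0.750 CPM of Fxyd6 in aWT (0.243 to 1.75), so the venous ratio above compared different mixes of clusters. Among arterial cells only cluster 13 met this size, with 75.5 CPM (66.0 to 86.0) in aKO and 14.1 CPM (8.51 to 22.1) in aWT. Cluster 5, with 52.9% of aKO arterial cells, had 3.34 CPM.

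Fxyd6 was also read against 6 genes of large-vessel endothelium (Vwf, Mgp, Cpe, Fabp4, Eln and Bgn), a list chosen after their values had been seen. Vwf is also a marker of the blood class and of the venous subclass. Among thinned blood cells with 5 or 6 of these genes, which were 513 in aKO (7.14%) and 324 in aWT (2.86%), Fxyd6 stood at 134 CPM (112 to 158) in aKO and 29.3 CPM (17.7 to 45.8) in aWT. With 3 or 4 of them it stood at 35.8 CPM in aKO and 6.53 CPM in aWT, and with 0 to 2 at 3.19 CPM in aKO and 1.10 CPM in aWT. Fxyd6 climbed with the number of these genes in both libraries, and aKO stood above aWT in each range. Among thinned venous cells, the transporter gene Slc6a2, 1 of the venous markers, was found in 7.41% of 108 aKO cells with Fxyd6 and 28.3% of 1390 without it, and in 19.0% of 21 aWT cells with Fxyd6 and 74.5% of 1596 without it. Markers of other cells moved as well: 9 mesenchymal markers summed to 47.8 CPM in aKO venous cells (9 of 9 above 0, Acta2 at 38.4 CPM) and 23.9 CPM in aWT venous cells (8 of 9, Acta2 at 17.5 CPM), and 6 proliferation genes to 320 CPM in aKO and 66.3 CPM in aWT. Median depth of venous cells was 9069 UMIs in aKO and 5037 in aWT. The part of the mesenchymal and proliferation genes in the Fxyd6 result was not tested, while the thinned ratio above holds depth equal.

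**Figure D3:**
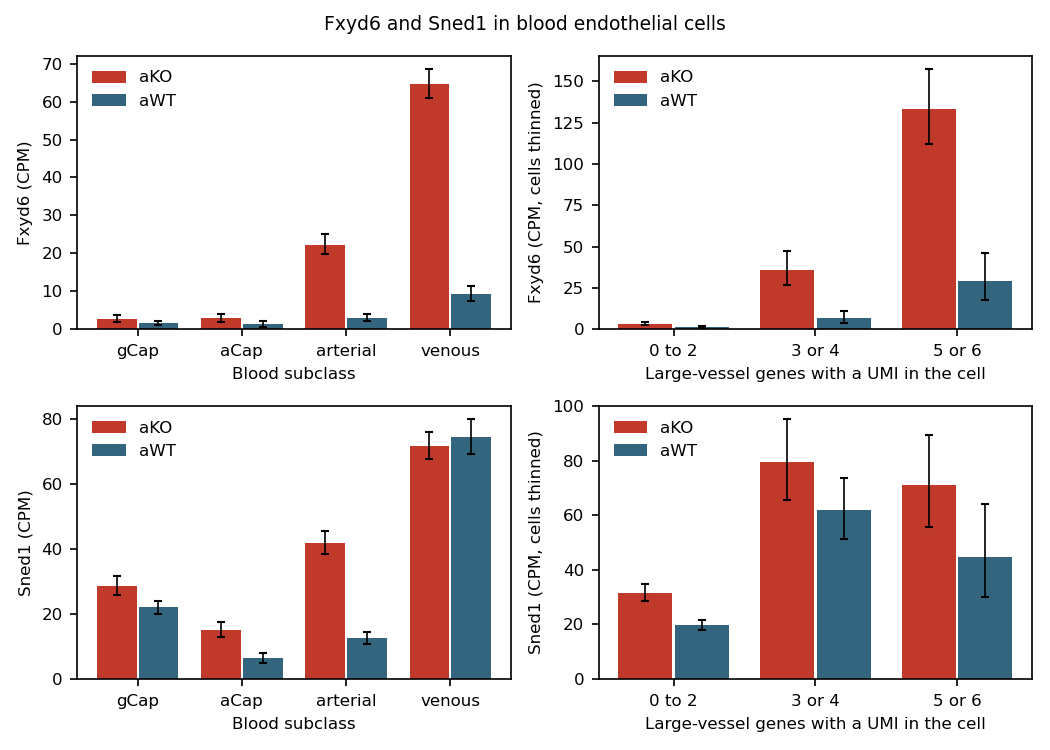
Fxyd6 (top) and Sned1 (bottom) in CPM with 95% Poisson intervals in aKO and aWT, by blood subclass (left) and by the number of 6 large-vessel genes with a UMI in the thinned cell (right). Fxyd6 is highest in aKO venous cells (64.7 CPM) and in aKO cells with 5 or 6 large-vessel genes (134 CPM), while Sned1 is level in venous cells.

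Sned1 had 2317 UMIs in aKO blood cells, 42.1 CPM (40.4 to 43.8), and 1457 in aWT blood cells, 25.9 CPM (24.6 to 27.3), a log2 ratio of 0.68. By subclass it stood at 41.9 CPM in aKO and 12.5 CPM in aWT arterial cells and at 15.1 CPM in aKO and 6.35 CPM in aWT aerocytes, both past 2-fold. In venous cells, where it was highest, it stood at 71.7 CPM in aKO and 74.6 CPM in aWT, and in gCap cells at 28.6 CPM in aKO and 22.0 CPM in aWT. With 13 markers aerocytes stood at 8.92 CPM in aKO and 6.13 CPM in aWT, a ratio of 1.46 (0.838 to 2.44), and gCap cells at 58.4 CPM in aKO and 20.8 CPM in aWT, a ratio of 2.80 (2.09 to 3.69). Sned1 was thus present in aWT veins as well. Under both marker sets it passed 2-fold in arterial cells, while aerocytes and gCap cells passed under 1 set each. In cluster 13, the only arterial cluster with at least 50 cells from each library, the gap was below 2-fold. Sned1 stood there at 48.1 CPM (40.6 to 56.6) in aKO and 24.6 CPM (16.9 to 34.5) in aWT. In venous cells Sned1 stood at 82.2 CPM in aKO and 59.9 CPM in aWT in cluster 10. In cluster 13 it stood at 53.8 and 39.2 CPM, and in cluster 14 at 65.5 and 70.7 CPM, in aKO and aWT. In epithelial cells it stood at 44.3 CPM in aKO (8 UMIs) and 89.1 CPM in aWT (88 UMIs), so it did not mark lymphatic cells alone in either library. Over all thinned aKO blood cells, Sned1 was found in 7.51% (4.06 to 12.5%) of those with Fxyd6 and 6.44% of those without. This pool mixes subclasses, with Sned1 in 12.5% of thinned aKO venous cells and 4.82% of gCap cells. It therefore does not show whether the 2 genes go together within a subclass.

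Counted over the 9 genes by subclass, none of 3 genes at 5 CPM passed 2-fold in gCap cells (3.84% of features higher, 3.47% lower), and 1 of 3, Sned1, passed in aerocytes (7.08% higher, 2.65% lower). In arterial cells 2 of 4 passed, Fxyd6 and Sned1 (6.76% higher, 5.25% lower), and in venous cells 1 of 5, Fxyd6 (6.51% higher, 4.56% lower). No gene of the 9 was lower past 2-fold in any of these subclasses. With 13 markers, 3 of 5 passed in gCap cells, Ccl21a, Fxyd6 and Sned1 (8.32% higher, 4.72% lower), none of 3 in aerocytes (3.83% higher, 2.52% lower), 2 of 5 in arterial cells, again Fxyd6 and Sned1 (10.6% higher, 6.15% lower), and 1 of 5, Fxyd6, in venous cells (9.07% higher, 6.47% lower). Those classes held 344 to 453 capillary and 197 to 249 arterial or venous aKO cells per subclass.

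The other 7 genes were traces in blood cells. As a share of their own lymphatic level in the same library they stood at 0.217 to 0.706% in aKO (median 0.393%) and 0.156 to 0.641% in aWT (median 0.297%), with Reln lowest and Nts highest in both. Fxyd6 stood at 4.47% of its lymphatic level in aKO and 0.581% in aWT, and Sned1 at 9.58% in aKO and 4.44% in aWT. Over the whole aWT blood class, then, Fxyd6 sat in the range of the other 7, and in aKO it stood above all of them. These are averages over unlike cells: in aWT venous cells Fxyd6 stood at 40.6 CPM in cluster 10 and 0.750 CPM in cluster 6.

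**Figure D4:**
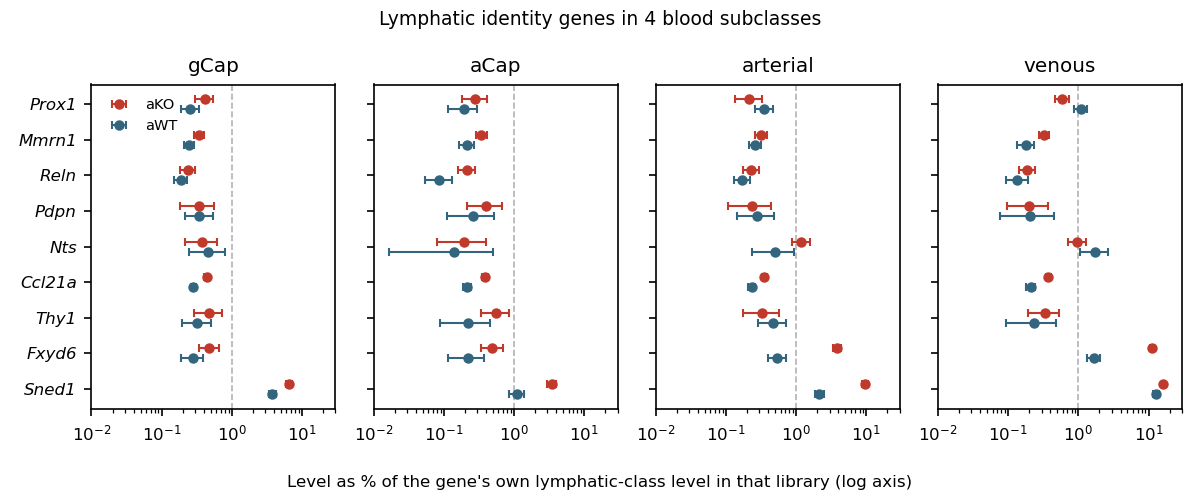
Level of each gene in general capillary (gCap), aerocyte (aCap), arterial and venous cells as % of its own lymphatic level in the same library (log axis), with 95% intervals; the dashed line is 1%. Fxyd6 in aKO stands at 11.2% in venous cells, and Sned1 in both libraries lies above the 7 other genes in most panels, which stay below 2%.

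The direction of Prox1 in blood cells turned with the marker set. With 11 markers it had 178 UMIs in aKO blood cells (3.23 CPM, 2.78 to 3.75) and 233 in aWT blood cells (4.15 CPM, 3.63 to 4.71). Of 147 aKO cells with a Prox1 UMI 133 had 1 only, as had 126 of 154 aWT cells. In venous cells Prox1 was lower, at 4.75 CPM in aKO and 10.1 CPM in aWT, a ratio of 0.471 (0.346 to 0.639) that stayed inside 2-fold on CPM + 1. With the 13-marker classes it stood at 6.68 CPM in aKO and 3.40 CPM in aWT blood cells, a ratio of 1.97 (1.38 to 2.76) and a log2 ratio of 0.80. It passed 2-fold among 13-marker blood cells without any lymphatic marker UMI, at a log2 ratio of 1.49.

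Ccl21a, a gene of very high level in lymphatic cells, was seen at a low level in all other classes. It had 2308 UMIs in aKO blood cells (41.9 CPM) and 1392 in aWT blood cells (24.8 CPM), a ratio of 1.69, and was nearly even over subclasses, at 37.6 to 46.8 CPM in aKO and 21.2 to 28.7 CPM in aWT. Epithelial cells held 27.7 CPM in aKO (8.98 to 64.6) and 20.2 CPM in aWT (12.4 to 31.3). Before thinning, 19.2% of aKO blood cells (median 5718 UMIs) and 9.19% of aWT blood cells (median 3948 UMIs) had a Ccl21a UMI, against 18.8% of 16 aKO epithelial cells (median 13249.5 UMIs) and 18.1% of 94 aWT epithelial cells (median 10193.5 UMIs). After thinning the shares were 7.30% of aKO and 4.52% of aWT blood cells, against 7.14% of 14 aKO epithelial cells (0.181 to 33.9%) and 4.82% of 83 aWT epithelial cells (1.33 to 11.9%). The blood shares lay inside these intervals, which are too wide to set a background level. In aKO venous cells, 133 of the Ccl21a UMIs (20.2%) lay in 1 cell. The copies Ccl21b and Ccl21c had 27 and 1 UMIs in aKO and 1 and 0 in aWT, and the second Ccl21a identifier 0 in aKO and 1 in aWT, so reads shared among copies leave the locus uncertain.

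The remaining genes were low. Mmrn1 stood at 10.2 CPM in aKO (560 UMIs) and 6.90 CPM in aWT blood cells (388 UMIs), and Reln at 4.41 CPM in aKO (243 UMIs) and 3.61 CPM in aWT (203 UMIs). Pdpn stood at 0.908 CPM in aKO and 0.872 CPM in aWT, and Thy1 at 1.27 CPM in aKO and 1.01 CPM in aWT. Nts had 119 UMIs in aKO (2.16 CPM) and 49 in aWT (0.872 CPM), and 30 of the aKO UMIs came from 1 arterial cell. None of these but Mmrn1 reached 5 CPM in the blood class of either library, and Mmrn1 differed by a ratio of 1.47 (1.29 to 1.68). Lymphatic cells gave 16.8% of aKO and 3.29% of aWT UMIs, and the traces of Mmrn1, Reln, Nts and Ccl21a moved in the same direction. Prox1 moved the other way, at a ratio of 0.780 (0.638 to 0.952). The ratio intervals of Pdpn (0.688 to 1.58) and Thy1 (0.871 to 1.81) spanned 1. The part of the lymphatic UMIs in these ratios was not tested.

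The genes were then counted per cell, to see whether any blood cell held several at once. Lymphatic cells had a median of 6 of the 9 genes in both libraries after thinning, and 3 or more were found in 99.3% of 1402 aKO and 100% of 354 aWT cells. In thinned blood cells, 3 or more were found in 8 of 7188 aKO cells (0.111%, 0.0481 to 0.219%) and 6 of 11320 aWT cells (0.0530%, 0.0195 to 0.115%). These intervals overlap, but they cover counting error only, and a difference between the genotypes was not tested. With 13 markers the shares were 0.199% of 1006 aKO and 0.0253% of 7914 aWT cells, from 2 cells in each library. At least 1 gene was seen in 18.5% of aKO and 11.7% of aWT thinned blood cells. At least 2 were seen in 1.78% of aKO (1.49 to 2.11%) and 0.716% of aWT (0.569 to 0.889%). Without thinning, which left out 975 aKO and 1670 aWT blood cells as too shallow, 3 or more were found in 1.80% of aKO and 0.262% of aWT blood cells. Cells between the classes were mixed: 71.8% of 255 aKO and 39.2% of 120 aWT thinned cells there had 3 or more.

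Blood cells with Fxyd6 were then searched for the other genes. Prox1 was found in 1 of 173 thinned aKO blood cells with Fxyd6 (0.578%, 0.0146 to 3.18%) and in 45 of 7015 without it (0.641%). In aWT it was found in 4 of 49 with Fxyd6 (8.16%, 2.27 to 19.6%) and in 74 of 11271 without it (0.657%). Mmrn1 was found in 1.73% of aKO blood cells with Fxyd6 and 1.91% without it, and Ccl21a in 9.25% with and 7.26% without. The few aWT blood cells with Fxyd6 held Prox1 more often than the other aWT blood cells, while in aKO the intervals for Prox1, Mmrn1 and Ccl21a with and without Fxyd6 overlap.

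**Figure D5:**
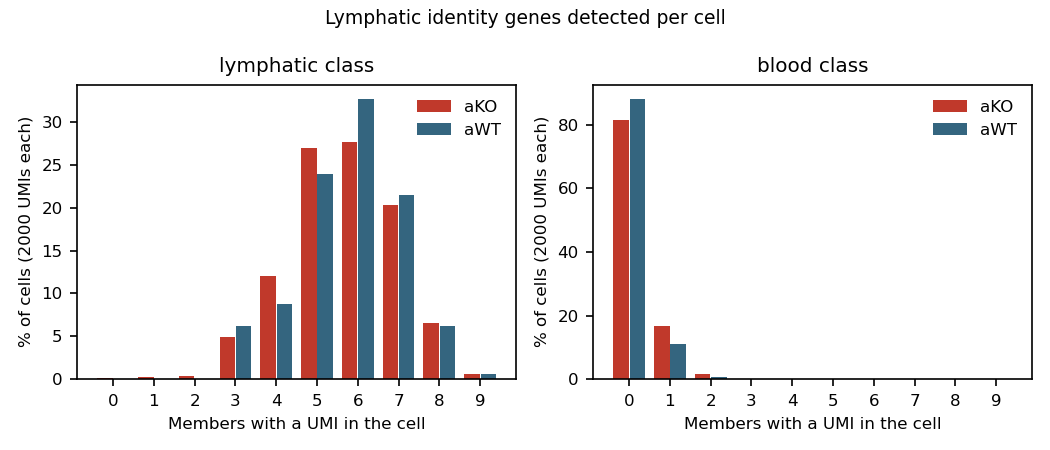
Number of the 9 genes with a UMI in a cell (x axis) against % of cells (y axis), cells thinned to 2000 UMIs, in lymphatic cells (left) and blood cells (right) of aKO and aWT. Lymphatic cells centre on 6 genes in both libraries, and blood cells hold 0 or 1, with 0.111% of aKO and 0.0530% of aWT blood cells at 3 or more.

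Other genes of lymphatic development, a list of 36, were read in the same classes. In lymphatic cells 33 reached 5 CPM, 4 were higher past 2-fold in aKO and none lower (2.83% of features higher, 3.43% lower), and the median log2 ratio was 0.11. Among the higher genes were Foxc2, a factor of lymphatic valves, at 42.2 CPM in aKO and 17.9 CPM in aWT, and the Tek ligand Angpt1 at 16.0 CPM in aKO and 6.43 CPM in aWT. With 13 markers 2 were higher, Foxc2 but not Angpt1 among them. Foxc2 and Flt4, the receptor for Vegfc, are also among the 11 class markers, so their levels within the classes are partly set by the class rule; Flt4 stood at 1122 CPM in aKO and 1114 CPM in aWT. Other regulators of lymphatic identity were close to level: Nrp2, the partner of Flt4, stood at 1424 CPM in aKO and 1417 CPM in aWT, Sox18 at 428 CPM in aKO and 385 CPM in aWT, Nr2f2 at 1395 CPM in aKO and 1244 CPM in aWT, Gata2 at 44.4 CPM in aKO and 53.7 CPM in aWT, and the Vegf receptor Kdr at 639 CPM in aKO and 768 CPM in aWT. These 5 regulators, none of them a class marker, differed by less than 2-fold.

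In blood cells 31 of the 36 reached 5 CPM, 3 were higher and 7 lower past 2-fold in aKO (5.45% of features higher, 3.46% lower), with a median log2 ratio of -0.08. With 13 markers 32 reached it, 8 were higher and 4 lower (8.25% of features higher, 3.43% lower), with a median of 0.02, so the balance turned with the marker set. With 11 markers, higher were Lyve1, given above, Ccbe1, which helps to activate Vegfc, at 10.8 CPM in aKO and 1.42 CPM in aWT, and the homeobox gene Meox2 at 5.36 CPM in aKO and 1.74 CPM in aWT. The 7 lower genes included receptors: Kdr stood at 269 CPM in aKO and 713 CPM in aWT, and Calcrl, the adrenomedullin receptor, at 1980 CPM in aKO and 4961 CPM in aWT. Efnb2, the arterial ephrin, stood at 271 CPM in aKO and 669 CPM in aWT, the connexin gene Gja4 at 43.1 CPM in aKO and 172 CPM in aWT, and the Tek ligand Angpt2 at 6.19 CPM in aKO and 18.4 CPM in aWT. Ackr4, a scavenger receptor for Ccl21, stood at 1.89 CPM in aKO and 17.3 CPM in aWT. Among regulators of lymphatic identity, Nr2f2 stood at 142 CPM in aKO and 80.0 CPM in aWT, Nrp2 at 77.6 CPM in aKO and 47.9 CPM in aWT, Flt4 at 56.6 CPM in aKO and 58.2 CPM in aWT, Sox18 at 298 CPM in aKO and 450 CPM in aWT, Gata2 at 224 CPM in aKO and 371 CPM in aWT, and Foxc2 at 5.03 CPM in aKO and 2.35 CPM in aWT. Of these 6 none passed 2-fold on CPM + 1 in blood cells with 11 markers, while Kdr, the other of 7 regulators, was lower past it. With 13 markers Kdr did not pass, and 3 of the 6 did: Nr2f2, Nrp2 and Foxc2 were higher in aKO.

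Across 10 profiles (gCap, aerocyte, arterial, venous and lymphatic cells of each library), among the genes outside the list whose log2 levels were most like the mean of the 9 were Prkcz, Duox2, Ppfibp1, Syn2, Lax1, Hoxd3os1 and Mpp7, out of 8827 candidates. Prkcz, which encodes an atypical protein kinase C, had a Pearson correlation of 0.998 and stood at 163 CPM in aKO and 140 CPM in aWT lymphatic cells. The profiles share 2 libraries and mostly set lymphatic cells against the rest, so these values are a description. Correlated with the mean of the other 8, each of the 9 genes had 0.98 or 0.99, except Fxyd6 at 0.901 and Sned1 at 0.902.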

How the data were processed

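The authors deposited raw UMI counts in gene by barcode matrices, without normalization, made with Cell Ranger 7.2.0 on mm10 per the submitters' processing notes. The annotation release and the counting of introns are not stated by the labels. Barcodes stayed in from 500 genes up and with no more than 15% mitochondrial UMIs, and Scrublet (scanpy 1.11.5) called 384 aKO (3.48%) and 700 aWT (4.38%) doublets, which were removed. Cells with 3 UMIs from 2 genes of immune, epithelial or mesenchymal markers were left out of the classes. Epithelial cells were those with 3 UMIs of 2 epithelial markers and under 3 pan-endothelial UMIs. Subclasses needed 3 UMIs from 2 subclass markers. UMIs were summed per class and library and divided by the class total to give CPM, and log2 ratios are aKO over aWT on CPM + 1, which understates low genes. With 1 library per group, 2-fold is a rule of size and not a test. Leiden clusters (resolution 1) were made on both libraries together, without the 9 genes and with no correction for library. Ratio intervals are exact and conditional on the summed UMIs.

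All 9 genes were named. The pathway genes named were those past 2-fold and 7 regulators, and the 8 genes of like profile had at least 20 CPM in 1 profile; some genes that these rules picked are not reported here. The genes and lists were chosen with earlier results of these data known. Gene positions are from GENCODE M21 and promoters from RefSeq. The rule was tested on simulated data for the 13-marker classes of aKO against aWT: in blood cells (10800 features) 50 of 50 genes were recovered at each of 3-fold and 4-fold, higher and lower, with 0 false calls. In lymphatic cells (10940 features) it recovered 50 of 50, 50 of 50, 48 of 50 (3-fold lower) and 50 of 50, with 19 false calls. The simulated counts carried counting error only, and genes were changed only where their mean level lay above the 5 CPM limit. The false calls thus give no rate for differences between real libraries, which the simulation did not include. Tools were Python 3.11.15, numpy 2.4.6, scipy 1.17.1, leidenalg 0.10.2, R 4.3.3 and edgeR 4.0.16 (TMM factors only). Alternatives were other class limits, marker sets, clusters, filters, thinning, scaling, subclasses and folds.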

Additional observations from a re-analysis of the deposited data

How the results depend on the processing

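Fxyd6 was above 0 on the log2 scale in blood cells under all 26 alternatives (0.21 to 3.59) and past the rule of size in 25 (2-fold, or 1.5-fold where that was the alternative), the exception being aerocytes alone with 13 markers. Sned1 passed in 16 of 26 (-0.14 to 2.34) and turned with venous cells alone (-0.14). Nts in lymphatic cells passed in 3 of 18 (-0.12 to 1.75). The count of 2 genes past 2-fold in blood cells became 1, Fxyd6, with class limits of 0.2 and 0.3, with TMM factors, with venous cells alone, with equal subclass weights, and with the 11-marker classes as they are, equally weighted, thinned or without lymphatic marker UMIs. It was 0 with aerocytes alone and 4 at 1.5-fold. It was 3 with gCap cells alone (Ccl21a added), with cells of other markers kept (Nts added), without lymphatic marker UMIs or with the other genes as markers (Prox1 added in both), and with clusters (Fxyd6, Nts and Ccl21a, at log2 ratios of 1.91 for Nts and 1.15 for Ccl21a). Prox1 in blood cells was above 0 in 20 of 26 alternatives (-0.43 to 1.49) and passed in 3. The count of 0 in lymphatic cells became 1, Nts, with limits of 0.05 and 0.7, at 1.5-fold and with 11 markers. Shares over all features are given above for the subclasses and for the 11-marker classes as they are. They were not computed for the other alternatives, so those counts cannot be set against a background.

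The share of blood cells with 3 or more genes (13 markers; 0.199% in aKO and 0.0253% in aWT) was 0 in both libraries with limits of 0.05 and 0.7, without lymphatic marker UMIs, and with the other genes added as markers. It was 1.69% in aKO and 0.174% in aWT without thinning, and 1.89% in aKO and 0.695% in aWT for 2 or more genes. In aWT it was 0.125% with clusters and 0.165% when thinned to a larger total. The aKO shares under these 2 settings are not reported here. The lymphatic share (56.6% in aKO and 4.68% in aWT) was 59.4% in aKO and 3.84% in aWT with limits of 0.05 and 0.7, 53.5% in aKO and 5.44% in aWT with 0.2 and 0.3, 16.6% in aKO and 3.52% in aWT with clusters, and 15.4% in aKO and 3.12% in aWT with 11 markers. It was 60.3% in aKO with a stricter cell filter. The 11-marker settings came after the data were seen, and the causes were not tested. No paired analysis was possible because each group has 1 library. Depth limits genes near 1 UMI per class.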
